A study of Homo sapiens with 4 samples.

Results

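The genes described here are 8 noncoding host genes of small nucleolar RNAs (snoRNAs), namely GAS5, SNHG1, SNHG5, SNHG6, SNHG7, SNHG8, SNHG12 and SNHG15. They were picked by gene symbol from a table of 23228 symbols. Under their own symbols 7 had a row, and SNHG15 was read from its older symbol C7orf40. All 8 were among the 12706 genes with enough counts to be tested. RNA came from ES2, an established human ovarian cancer cell line, after 12 h with EC359 at 10 nM, an inhibitor of the LIF receptor (LIFR). Control cells received 0.1% DMSO, the vehicle. Each treatment had 2 libraries, all from this 1 line in serum-containing RPMI medium. The values are raw read counts per gene, with 25572494 to 31707553 counts on genes in each library.

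A snoRNA host gene makes a spliced RNA whose introns are cut into snoRNAs. The snoRNAs join core proteins and guide the chemical modification of ribosomal RNA, box C/D snoRNAs for ribose methylation and box H/ACA snoRNAs for pseudouridine. Many host RNAs start, like the mRNAs of ribosomal proteins, with a C and a run of pyrimidines, the 5′ terminal oligopyrimidine (TOP) motif. TOP RNAs are translated or held back according to mTOR activity, with LARP1 as a binding protein, and spliced host RNAs such as GAS5 are cleared by nonsense-mediated decay when they are translated. GAS5 is known as a transcript that accumulates in growth-arrested cells.

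The snoRNAs inside each host were read from RefSeq, which places 31 snoRNA genes there, and 29 of these had a row in the count tables. GAS5 holds 10 box C/D snoRNAs and 1 box H/ACA snoRNA, SNHG1 holds 8 box C/D snoRNAs and 1 entry of neither named class, SNHG5 holds 2 and SNHG6 holds 1. SNHG12 holds 1 box C/D and 3 box H/ACA snoRNAs. SNHG7, with 2, and SNHG8 and SNHG15, with 1 each, hold box H/ACA snoRNAs only, so these 3 are not hosts of SNORD genes.

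The 60 bases around the annotated start of the host genes in the RefSeq promoter table are shown because a TOP start was the feature named for this group. A C followed by 4 or more C or T was searched on the sense strand within 10 bases of the start, and capitals mark each whole run of C and T that holds a match. Positions are those of GRCh38.p14, the build of that table. They are chr1:28581844-28581903 (minus) for SNHG12, chr6:85678704-85678763 (minus) for SNHG5, chr9:136728155-136728214 (minus) for SNHG7, chr4:118278732-118278791 (plus) for SNHG8, chr11:62855856-62855915 (minus) for SNHG1 and chr1:173869016-173869075 (minus) for GAS5.
SNHG12: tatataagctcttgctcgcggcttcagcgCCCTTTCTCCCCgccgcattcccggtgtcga
SNHG5: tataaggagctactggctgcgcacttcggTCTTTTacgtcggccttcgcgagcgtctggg
SNHG7: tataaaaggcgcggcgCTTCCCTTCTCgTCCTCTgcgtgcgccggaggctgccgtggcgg
SNHG8: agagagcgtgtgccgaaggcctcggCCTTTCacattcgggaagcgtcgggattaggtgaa
SNHG1: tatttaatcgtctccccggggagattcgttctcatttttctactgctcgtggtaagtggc
GAS5: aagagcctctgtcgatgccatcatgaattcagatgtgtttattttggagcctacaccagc

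Counting the annotated start as offset 0, SNHG12 carried a run of 12 pyrimidines from offset -1 to 10. The run of SNHG5 had 6, from -1 to 4, and that of SNHG8 had 6, from -5 to 0. SNHG7 held 2 runs, 11 long from -14 to -4 and 6 long from -2 to 3. SNHG1 and GAS5 had no match within 10 bases of the 1 start that the table gives per gene. In GENCODE (GRCh37, minus strand) the canonical GAS5 transcript begins at 173837127, while the gene reaches 173838020, so GAS5 has more than 1 annotated start. Other starts were not searched, and the missing match does not show that GAS5 or SNHG1 lacks a TOP start. The search is loose, since 33.5% of 35116 promoters held a match, against 88.7% of 62 cytosolic ribosomal protein promoters. A match that begins with the C at offset 0 was found in 4.07% and 67.7%, whether or not the run reaches further upstream. Among the hosts shown, SNHG12 and SNHG5 held such a match, and SNHG7, SNHG8, SNHG1 and GAS5 did not. In the 300-base promoters, the MYC-type E-box CACGTG (the same on both strands) occurred once in SNHG7 and in none of the other 5, and in 7.26% of all promoters. The STAT-type motif TTCNNNGAA, also the same on both strands, occurred in none of the 6 and in 7.66% of all promoters. The matches describe letters in these windows, and SNHG6 and SNHG15 are not shown.

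With EC359, none of the 8 host RNAs passed the test. After Benjamini-Hochberg adjustment of the p-values from edgeR's quasi-likelihood test, 0 members had an adjusted p under 0.01, when 1.09% of all tested genes did. At an adjusted p under 0.05 there were also 0, against 4.32% of all tested genes (1.68% higher and 2.64% lower). At an unadjusted p under 0.05 there were 3 members, 1 higher and 2 lower, where 10.7% of all tested genes were higher and 11.0% were lower. DESeq2, limma voom and edgeR's exact test also called 0 of the 8, and edgeR with a replicate block called 1, SNHG1. The median log2 fold change of the 8 was -0.070, beside 0.0029 over all tested genes. This median was -0.019 without EC359 replicate 1, -0.038 without vehicle replicate 1 and -0.11 without vehicle replicate 2. The 95% intervals of all 8 lay between -0.31 and 0.33 on the log2 scale, that is between 0.805-fold and 1.26-fold of vehicle. Over all genes 139 were called, 38 higher and 101 lower, and with total counts alone as the scale 52 were higher and 68 lower. The study describes the replicates of its RNA-seq as biologically independent.

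**Figure D1:**
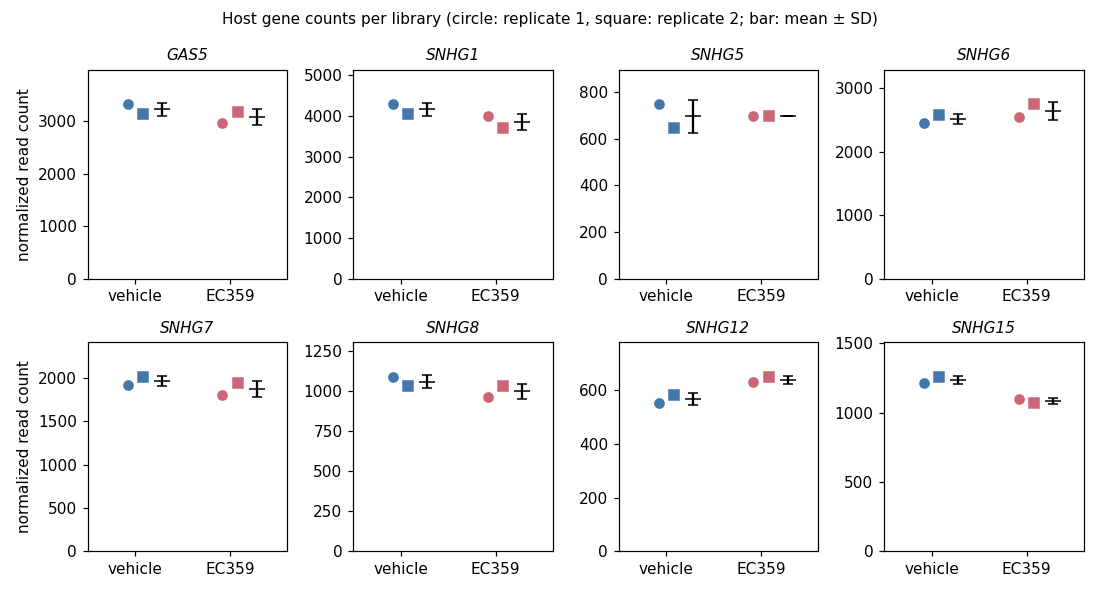
Normalized read counts (y axis, from 0, a separate scale for each gene) of the 8 host genes in the 2 vehicle and 2 EC359 libraries, with the mean and SD of each treatment beside the points. The treatments do not overlap for SNHG12, SNHG1 and SNHG15, and overlap for the other 5 genes.

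SNHG15, a host of SNORA9 that is also known as a short-lived stress-responsive RNA, had the lowest p of the group. Its normalized counts, which are counts rescaled to the average TMM-adjusted depth of the libraries, were 1214 and 1254 with vehicle and 1101 and 1069 with EC359. Both EC359 libraries lay below both vehicle libraries. The means were 1234 ± 28.5 and 1085 ± 22.6 (SD, n = 2 each), with a log2 fold change of -0.19 (standard error 0.057, 95% interval -0.31 to -0.058). The unadjusted p from the edgeR model was 0.00866 and the adjusted p 0.0942, so the gene did not pass.

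SNHG1, the host of the box C/D snoRNAs SNORD22 and SNORD25 to SNORD31, had 4280 and 4053 normalized counts with vehicle and 3993 and 3710 with EC359. The lowest vehicle library stood just above the highest EC359 library. The means were 4166 ± 161 and 3852 ± 200 (SD, n = 2 each). The log2 fold change was -0.11 (standard error 0.047, 95% interval -0.22 to -0.0098, edgeR adjusted p = 0.192). With the replicate number as a block the same difference had an adjusted p of 0.00743 by edgeR. The numbers are not said to mark a shared batch. Leaving out 1 library at a time moved the log2 fold change of SNHG1 between -0.17 (without EC359 replicate 1) and -0.061 (without EC359 replicate 2).

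SNHG12 differed in the other direction. It had 551 and 583 normalized counts with vehicle and 628 and 647 with EC359, and both EC359 libraries lay above both vehicle libraries. The means were 567 ± 22.5 and 638 ± 13.5 (SD, n = 2 each), with a log2 fold change of 0.17 (standard error 0.072, 95% interval 0.0084 to 0.33, edgeR adjusted p = 0.211). In all, 3 of the 8 had treatments that did not overlap, 1 above and 2 below, when 51.5% of all tested genes had such a separation, 26.1% above and 25.4% below.

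The intervals of SNHG12 and SNHG15 did not overlap each other. The count of SNHG12 divided by that of SNHG15, a ratio within each library that no scaling factor touches, was 0.454 and 0.465 with vehicle and 0.570 and 0.605 with EC359. This pair was picked as the highest and the lowest fold change of the 8, so the ratio is a description and was given no test. An exact two-sided permutation test of 2 libraries against 2 cannot go below 0.333.

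GAS5 had 3317 and 3141 normalized counts with vehicle and 2969 and 3181 with EC359, and the treatments overlapped. Its log2 fold change was -0.071 (standard error 0.048, 95% interval -0.18 to 0.036, edgeR adjusted p = 0.429). SNHG6 had 2456 and 2577 with vehicle and 2545 and 2746 with EC359, a log2 fold change of 0.072 (95% interval -0.040 to 0.18). SNHG7 had 1918 and 2005 with vehicle and 1803 and 1939 with EC359, a log2 fold change of -0.069 (95% interval -0.19 to 0.051). For both genes 1 library of a treatment lay inside the range of the other treatment.

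SNHG8 had 1084 and 1029 normalized counts with vehicle and 963 and 1030 with EC359, a log2 fold change of -0.085 (95% interval -0.23 to 0.057). SNHG5 had 746 and 643 with vehicle and 697 and 698 with EC359, a log2 fold change of 0.0057 (95% interval -0.17 to 0.18). The vehicle libraries of SNHG5 lay on either side of both EC359 libraries, and the SD of vehicle was 72.6. Without vehicle replicate 2 its log2 fold change was -0.10, and without vehicle replicate 1 it was 0.12. The edgeR adjusted p of SNHG6, SNHG7 and SNHG8 ran from 0.448 to 0.499, and that of SNHG5 was 0.981. Leaving out 1 library at a time also moved the log2 fold change of GAS5 (-0.12 to -0.022), SNHG6 (0.017 to 0.13), SNHG7 (-0.12 to -0.017) and SNHG8 (-0.13 to -0.037), where the value nearest 0 came without EC359 replicate 1 for GAS5, SNHG7 and SNHG8 and without EC359 replicate 2 for SNHG6.

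Summed over the 8 genes, these hosts had 547 and 537 CPM (counts scaled to the library total) with vehicle and 524 and 538 with EC359. The treatments overlapped narrowly in this sum, at 537.2 in the lower vehicle library and 537.7 in the higher EC359 library. On the TMM scale the summed normalized counts were 15566 and 15285 with vehicle and 14700 and 15021 with EC359. Both EC359 libraries then lay below both vehicle libraries, as they did for 25.4% of all tested genes. Profiles near this TMM-scaled sum were sought among 7924 tested genes outside the group with at least 500 normalized counts. By Euclidean distance of centred log2 values over the 4 libraries, the 5 nearest were PPHLN1, NDUFB6, DDA1, ATXN1L and FAM89B. Their distances ran from 0.00201 to 0.0114, and with 4 libraries this only describes similar small differences.

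**Figure D2:**
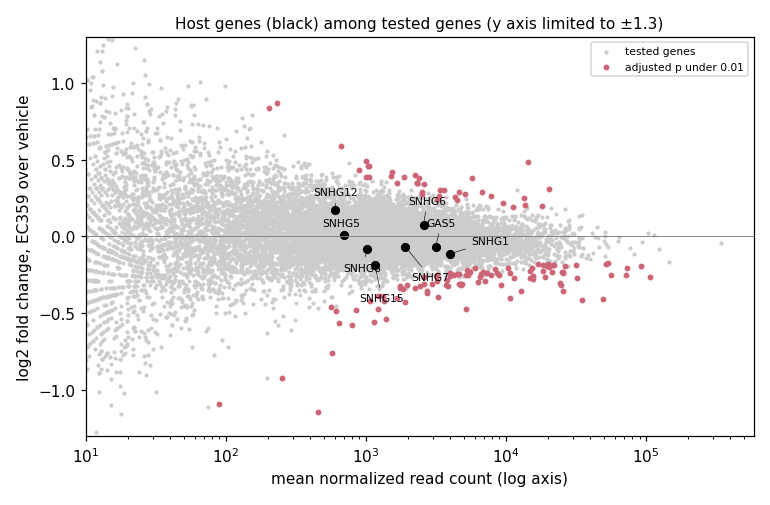
Log2 fold change of EC359 over vehicle (y axis, limited to ±1.3, so that a few genes lie outside) against the mean normalized read count (x axis, log scale) for tested genes in grey, genes with an adjusted p under 0.01 in red and the 8 host genes in black. The host genes sit between -0.19 and 0.17, with no red point among them.

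In GRCh37, the assembly that UCSC names hg19, all 8 are annotated as long noncoding RNAs by GENCODE. GAS5 lies on chromosome 1 from 173827697 to 173838020, and SNHG12 on the same chromosome from 28905050 to 28909644. SNHG1 lies on chromosome 11 from 62619450 to 62623425, and SNHG5 on chromosome 6 from 86360209 to 86388650. SNHG7 lies on chromosome 9 from 139615818 to 139622636, and SNHG15 on chromosome 7 from 45022618 to 45026560. These and SNHG6, on chromosome 8 from 67832796 to 67838633, are on the minus strand. SNHG8 is on the plus strand of chromosome 4 from 119199858 to 119206471.

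Some limits apply to single genes. The library kit keeps the strand, while the strand setting of the counting is not given in the sources used here. SNHG8 overlaps PRSS12 on the opposite strand by 5279 bases in GENCODE, and PRSS12 had 575 and 621 counts with vehicle and 760 and 595 with EC359. SNHG6 overlaps MCMDC2 and SNHG7 overlaps DIPK1B, both on the opposite strand, but MCMDC2 had at most 8 counts and DIPK1B at most 1 in any library. SNHG12 meets TRNAU1AP, on the opposite strand, over 8 bases. On its own strand, SNHG5 overlaps the protein-coding gene ENSG00000271793 by 28243 bases and the pseudogene PKMP3 by 715 bases. Neither had a row in the count tables, and whether their reads fell on SNHG5 was not tested. GAS5-AS1, opposite GAS5 over 1469 bases, had no row either. Of the 50-base windows of the canonical transcripts, 7.93% for GAS5, 2.09% for SNHG12 and 2.08% for SNHG7 also occurred in transcripts of genes at other places. Levels were not compared between host genes, because the annotated transcripts at hand differ in length from those the reads were counted on.

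The snoRNA rows inside the hosts give a second readout of the same loci. The libraries were made from polyadenylated RNA, so reads on these rows can come from unspliced host RNA as well as from snoRNAs, and the source of the reads was not tested. Of 29 rows, 27 were tested and 0 were called by edgeR's quasi-likelihood test, at a background of 1.09%. At an unadjusted p under 0.05 there was 1 row, SNORD44, on the lower side. The log2 fold change was negative in 22 rows and positive in 5, with a median of -0.17 (-0.11 without EC359 replicate 2). Over all tested genes 6230 of 12706 were negative. These rows share hosts and libraries and are not independent of each other, and they held only 5 to 378 counts per library.

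Inside GAS5, all 10 snoRNA rows had a negative log2 fold change, from -0.61 for SNORD74 to -0.017 for SNORD47. SNORD44 had 142 and 128 normalized counts with vehicle and 93.8 and 108 with EC359, and the treatments did not overlap (log2 fold change -0.42, standard error 0.15, edgeR adjusted p = 0.147). SNORD47, the row with the most counts, had 335 and 343 with vehicle and 334 and 335 with EC359, and its vehicle and EC359 libraries nearly coincided. SNORD79 had 173 and 131 with vehicle and 128 and 120 with EC359. SNORD76 had 138 and 122 with vehicle and 124 and 115 with EC359, and its treatments overlapped. Inside SNHG1, 5 of 8 rows were negative and 3 were positive, SNORD31 having 38.9 and 41.2 with vehicle and 48.6 and 48.6 with EC359 (log2 fold change 0.28).

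As a share of all counts on a locus, snoRNA rows took 25.0% (exact 95% binomial interval 23.7% to 26.4%) and 24.4% of GAS5 counts with vehicle, and 23.7% and 22.5% (21.3% to 23.8%) with EC359. For SNHG12 the shares were 17.6% (14.7% to 20.9%) and 17.7% with vehicle and 15.1% and 13.8% (11.5% to 16.4%) with EC359. In both loci the EC359 libraries lay below the vehicle libraries, but the counting intervals of the treatments overlapped. In SNHG12 the host row stood higher and the snoRNA rows lower with EC359, since the snoRNA rows together had 118 and 126 normalized counts with vehicle and 111 and 104 with EC359. For SNHG1 the shares were 10.2% and 11.1% with vehicle and 10.5% and 10.8% with EC359, so that the EC359 libraries lay between the vehicle libraries. The intervals cover counting error only.

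**Figure D3:**
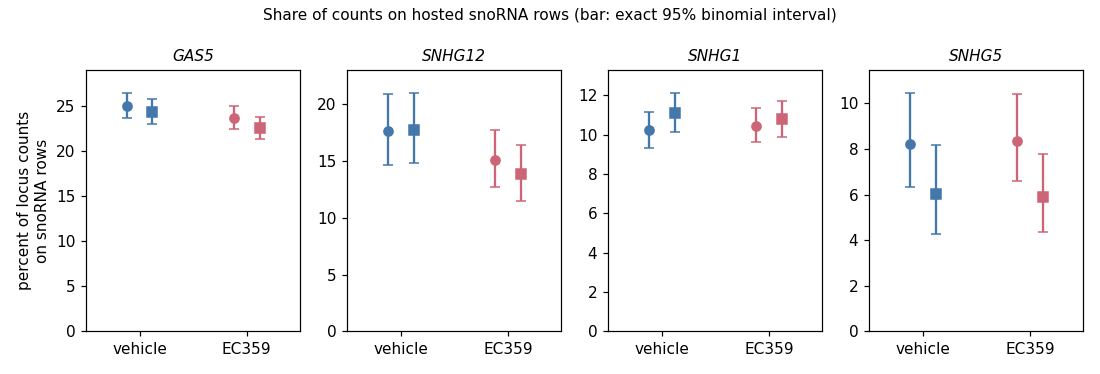
Percent of the counts on a locus (host row plus its snoRNA rows) that fell on snoRNA rows (y axis, from 0), for the 4 hosts with the most snoRNA counts, in each vehicle and EC359 library, with exact 95% binomial intervals as bars. The EC359 points are lower than the vehicle points in GAS5 and SNHG12 and overlap them in SNHG1 and SNHG5.

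The remaining hosts had few snoRNA counts. SNHG5 rows took 8.21% and 6.02% of the counts with vehicle and 8.37% and 5.92% with EC359, and replicates differed more than treatments. SNORD87 inside SNHG6 had 19 and 19 counts with vehicle and 21 and 11 with EC359. SNORA24 inside SNHG8 had 16 and 16 with vehicle and 14 and 20 with EC359, and SNORA9 inside SNHG15 had 16 and 11 with vehicle and 18 and 18 with EC359. SNHG7's SNORA17A and SNORA17B had 0 counts in all 4 libraries, and a count of 0 allows up to 3 counts. Reads on no annotated gene, which would include other intronic reads, made up 11.1% and 10.9% of the reads with a single alignment with vehicle, and 12.0% and 11.0% with EC359. Their part in these rows was not tested.

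Other noncoding snoRNA hosts were read from a list of 15, of which 10 had a row and 9 were tested. Of these 0 were called, when 1.09% of all tested genes were. At an unadjusted p under 0.05 there were 1 higher and 1 lower, beside 10.7% and 11.0% of all tested genes. The median log2 fold change was -0.085. Without vehicle replicate 1 this median was 0.066, without vehicle replicate 2 it was -0.20 and without EC359 replicate 1 it was -0.039. DANCR, whose name comes from its role against differentiation, had 1060 and 1113 normalized counts with vehicle and 870 and 883 with EC359. Its treatments stood well apart, with a log2 fold change of -0.31 (standard error 0.061, edgeR adjusted p = 0.0209), which does not pass 0.01. EPB41L4A-AS1 had a log2 fold change of 0.21 (adjusted p = 0.223) and SNHG9 of -0.39 on 61.2 and 46.8 mean normalized counts (adjusted p = 0.298). ZFAS1, another host with a TOP-type start, had 4593 with vehicle and 4649 with EC359 on average and a log2 fold change of 0.017.

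**Figure D4:**
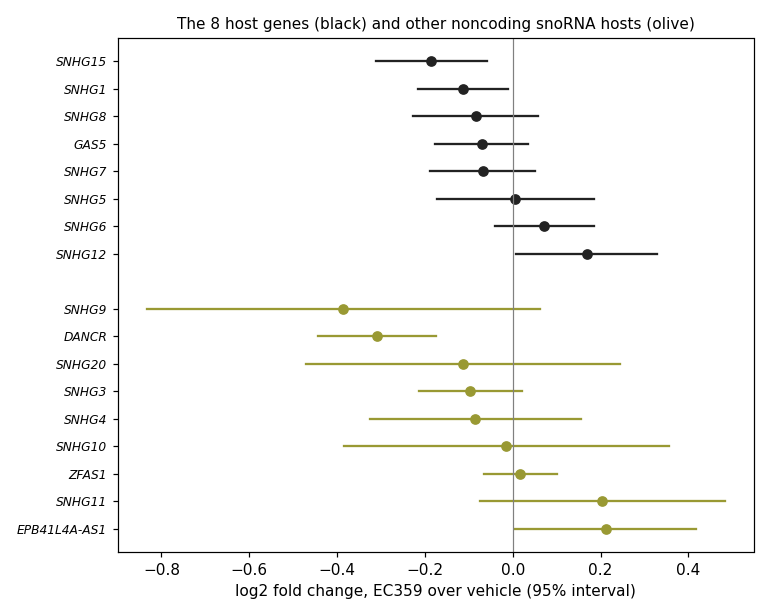
Log2 fold change of EC359 over vehicle (x axis) with its 95% interval from edgeR's quasi-likelihood fit, for the 8 host genes in black and the 9 other tested noncoding hosts in olive. Before adjustment, the intervals of SNHG15 and SNHG1 lie below 0 and that of SNHG12 lies above 0. Among the other hosts, the interval of DANCR lies below 0 and is the farthest from 0, and that of EPB41L4A-AS1 lies above 0 (0.0044 to 0.42).

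The translation machinery also hosts snoRNAs in protein-coding genes. Of 28 tested protein-coding hosts that encode ribosomal proteins or translation factors, 2 were called lower and 0 higher, at backgrounds of 0.795% and 0.299%, and 11 were lower and 0 higher at an unadjusted p under 0.05, where 11.0% and 10.7% of all tested genes were. Their median log2 fold change was -0.062 (-0.034 without vehicle replicate 1), and 20 of the 28 were negative. The 2 called were RPL13A, a protein of the large ribosomal subunit, and RPS3, a protein of the small subunit. RPL13A had a log2 fold change of -0.23 (edgeR adjusted p = 0.00677) and RPS3 of -0.17 (adjusted p = 0.0097). RPSA had 4824 and 5241 normalized counts with vehicle and 3996 and 4370 with EC359, and did not pass (log2 fold change -0.27, adjusted p = 0.0203). Ribosomal protein genes have many near-identical processed copies in the genome, and reads with several alignments were not counted, so their values are uncertain.

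Among 16 tested protein-coding hosts outside the ribosome 1 was called, at a background of 1.09%, and it was lower: RCC1, the guanine exchange factor of Ran. Before adjustment, 4 of the 16 were lower and 1 was higher with a p under 0.05, beside 11.0% and 10.7% of all tested genes. It had 7188 and 7315 normalized counts with vehicle and 6150 and 6098 with EC359 (log2 fold change -0.24, edgeR adjusted p = 0.00442). RCC1 shares its start region with the noncoding host SNHG3, which had a log2 fold change of -0.097 (adjusted p = 0.323). The median of the 16 was -0.00082, with 8 negative and 8 positive. TNPO2, with -0.11, and PRPF39, with 0.19, had adjusted p values of 0.0992 each by edgeR. The list also holds NOP56 and DKC1, which are core proteins described next.

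The proteins that bind the snoRNAs were read next. Of the 4 box C/D core proteins 0 were called and 3 were lower at an unadjusted p under 0.05, as were 11.0% of all tested genes. FBL, the methyltransferase fibrillarin, had 6205 and 6192 normalized counts with vehicle and 5309 and 5449 with EC359 (log2 fold change -0.20, standard error 0.034, edgeR adjusted p = 0.0108), just outside the threshold. NOP56 and NHP2L1 had log2 fold changes of -0.097 and -0.093, and NOP58 of 0.0019. Of the 4 box H/ACA core proteins 0 were called and 3 were lower at an unadjusted p under 0.05, against the same 11.0%. NOP10 (-0.17, adjusted p = 0.0515), NHP2 (-0.16) and DKC1 (-0.087), the pseudouridine synthase dyskerin, had both EC359 libraries below both vehicle libraries, as did 25.4% of all tested genes, and GAR1 (-0.011) did not.

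For the next lists, the shares over all tested genes were 1.09% called and 11.0% lower at an unadjusted p under 0.05. Of 11 tested snoRNP assembly factors, 0 were called and 1 was lower at an unadjusted p under 0.05. That was PIH1D1, a subunit of the R2TP chaperone complex (log2 fold change -0.27, edgeR adjusted p = 0.0301). RPAP3 (0.093) and ZNHIT6 (0.066) were higher, with adjusted p values of 0.288 and 0.386. The median of the 11 was -0.0051, with 4 positive and 7 negative. Of 19 factors of nonsense-mediated decay, 0 were called and 1 was lower at an unadjusted p under 0.05, the exon junction protein MAGOH (-0.15, adjusted p = 0.100). UPF1, the central helicase of this decay, had 4151 and 4380 normalized counts with vehicle and 4473 and 4502 with EC359 (log2 fold change 0.073, adjusted p = 0.312). The median of the 19 was 0.017, with 11 positive and 8 negative. Of 18 regulators of TOP mRNAs, 0 were called and 1 was lower at an unadjusted p under 0.05. That was LARP1, with 15402 and 15308 with vehicle and 14230 and 14261 with EC359 (log2 fold change -0.11, adjusted p = 0.0676). EIF4E, the cap-binding factor, had a log2 fold change of -0.14 (adjusted p = 0.238), and TIA1 had 0.088 (adjusted p = 0.264). The median of the 18 was 0.027, with 11 positive and 7 negative. These are RNA levels, and translation of TOP RNAs was not measured here.

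Long noncoding RNAs that host no snoRNA were set beside the host genes. Of 11 tested, 0 were called, 2 were higher and 3 were lower at an unadjusted p under 0.05, beside 10.7% and 11.0% of all tested genes. The median log2 fold change was -0.13, and it was -0.072 without vehicle replicate 1 and -0.080 without EC359 replicate 1. MALAT1, an abundant nuclear RNA, had 1245 and 1033 normalized counts with vehicle and 1500 and 1381 with EC359 (log2 fold change 0.34, edgeR adjusted p = 0.0485). MIR22HG had a log2 fold change of 0.28 (adjusted p = 0.0563) and TUG1 of -0.14 (adjusted p = 0.0572). The medians of the 8 host genes and of these 11 RNAs were not compared by a test.

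**Figure D5:**
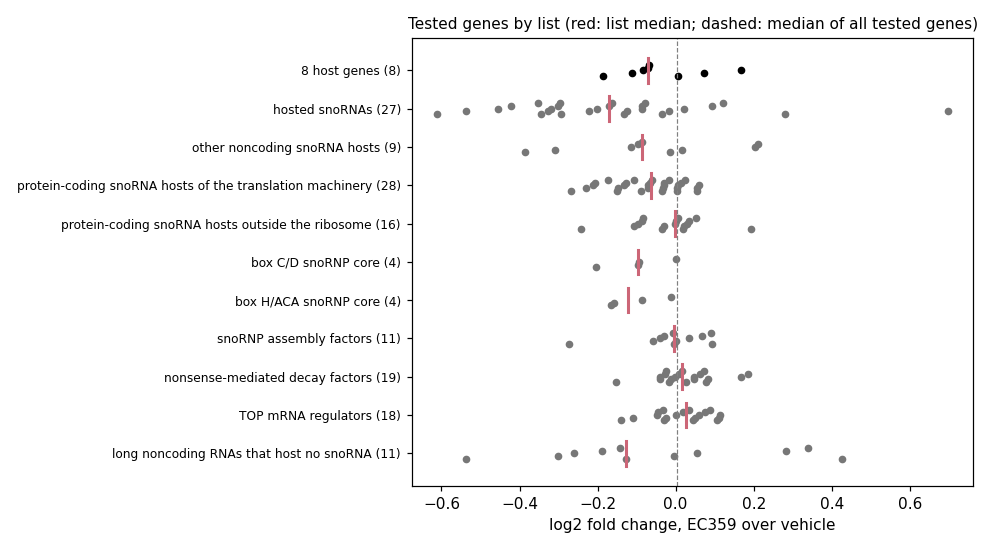
Log2 fold change of EC359 over vehicle (x axis) of each tested gene, by list, with the number of tested genes in brackets, the list median as a red bar and the median of all tested genes as a dashed line. The 8 host genes have a median of -0.070 and spread on both sides of 0, and the snoRNA rows have a median of -0.17.

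Markers of an epithelial ovarian cancer line were present in part. KRT7, KRT18, VIM and LIFR had over 1000 counts in every library, while EPCAM had at most 2 counts and PAX8 24 to 41. Of the 8 tested markers of such a line, 0 were called and 3 had an unadjusted p under 0.05, beside 1.09% and 21.6% of all tested genes. The 3 were VIM (log2 fold change -0.17, edgeR adjusted p = 0.0135), IL6ST, the co-receptor of LIFR (0.18, adjusted p = 0.0203), and KRT18 (0.090, adjusted p = 0.204). Of the leukocyte markers, PTPRC, CD3E and CD14 had 0 to 2 counts and CD68 2296 to 2914. Of the endothelial markers, PECAM1 and VWF had 0 to 2 counts, KDR 26 to 43 and CDH5 3118 to 3920, and no leukocyte or endothelial marker that was tested had an unadjusted p under 0.05.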

How the data were processed

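RNA-seq counts from ES2 cells were used, 2 libraries with vehicle and 2 with EC359. The authors aligned 50 bp single-end reads to hg19 with TopHat2 (2.0.8b) and used HTSeq with the NCBI RefSeq annotation to obtain the raw counts, 1 per gene symbol, that were deposited. The 5 summary rows of each file, with no gene name, were kept out and held 41.7% to 42.5% of all entries, mostly alignments that were not unique (33.8% to 34.4%). The strand setting of the counting is not given in the sources used here. Genes were filtered with filterByExpr (minimum count 10, minimum total 15), scaled with TMM and tested with the quasi-likelihood test of edgeR 4.0.16 in R 4.3.3, with Benjamini-Hochberg adjustment over all 12706 genes and a threshold of 0.01. Intervals are the log2 fold change with its standard error and the model's t quantile. The test was checked on counts simulated at the real means. Of the genes given a log2 change of 0.2, 14.6% were recovered at the threshold, so changes of that size were mostly missed. At 0.3 the share was 45.7%, and at 0.5 it was 78.9%. Replicates differed beyond sampling noise (chi-square per degree of freedom 3.78 and 2.69). Older symbols were matched through RefSeq.

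The members and gene lists were chosen with earlier results of these data known. Named are the 8 members, up to 3 genes with the lowest adjusted p per list (others only with their list), up to 5 snoRNA rows with the highest counts, and the 5 genes with the nearest profile. SNORD74, SNORD31, SNORD87, SNORA24, SNORA9, ZFAS1, SNHG3, NOP58, GAR1, most marker genes and the overlapping neighbours were named after their values were seen. Alternatives were RLE, upper-quartile and no factors, DESeq2 1.42.0, limma voom 3.58.1, the exact test, 2 filters, a replicate block, length and GC trends, thresholds and leaving out each library.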

Additional observations from a re-analysis of the deposited data

How the results depend on the processing

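Of 120 log2 fold changes of the 8 host genes under 15 alternatives, 118 kept their direction and side of the threshold. SNHG5 turned to -0.103 without vehicle replicate 2 (0.117 without vehicle replicate 1), and SNHG1 passed with a replicate block (-0.113, adjusted p = 0.00743), which made 1 member called lower in place of 0. At an unadjusted p under 0.01 there was also 1, SNHG15. With the GC trend removed, the edgeR adjusted p was 0.0128 for SNHG1, 0.0183 for SNHG15 and 0.0249 for SNHG7, all lower with EC359. These fall under 0.05 but not 0.01, and many more genes were called in that setting. The log2 fold change of SNHG7 was then -0.154, against -0.0687 in the main fit. With the replicate block, SNHG15 had an edgeR adjusted p of 0.0112. Leaving out 1 library gave 0 members called each time. The median of the 8 ran from -0.109 to -0.0193 when 1 library was left out (without vehicle replicate 2 and without EC359 replicate 1). Over all genes, 139 calls became 230 with DESeq2, 568 with the exact test, 61 without a filter (16620 genes tested), 1156 with the GC trend removed and 1539 with the replicate block. There were 549 at an adjusted p under 0.05 and 1255 at an unadjusted p under 0.01. Leaving out 1 library gave 0 to 539 calls by edgeR's quasi-likelihood test, with 0 without EC359 replicate 1 (1460 at an unadjusted p under 0.05), 2 without EC359 replicate 2, 390 without vehicle replicate 1 and 539 without vehicle replicate 2. The cause of these changes was not tested. Labels share replicate numbers but do not say what a number marks. Over the tested genes, the deviations of same-numbered libraries from their treatment means correlated at 0.103. The 2 libraries per treatment limit how small a difference could be called.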
